A study of Homo sapiens with 9 samples.

Results

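The RNA interference machinery was followed through 10 genes, AGO1, AGO2, AGO3, AGO4, DICER1, TARBP2, DROSHA, DGCR8, XPO5 and TNRC6A, of 18143 genes listed in the deposited tables. They were chosen by symbol as the proteins that make, load or act with small RNAs, and all 10 were present in every library and passed the filter on low counts. RNA was measured in A549, a human lung adenocarcinoma cell line, 48 h after transfection with a scramble siRNA (Scramble) or with 1 of 2 siRNAs against REV1, a translesion DNA polymerase (SiREV1#1 and SiREV1#2), with 3 libraries per group. All 3 groups had received an siRNA, and no untransfected group was part of the comparison, so the values describe differences between siRNAs and not the effect of transfection. The labels number the libraries 1 to 3 in each group but do not say that they came from separate cultures, so p-values measure the spread between these libraries, which may be technical.

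Transfected siRNAs enter the pathway that cells use for their own microRNAs. In that pathway the nuclear enzyme DROSHA and its partner DGCR8 cut the primary microRNA transcript, XPO5 carries the hairpin to the cytoplasm, and DICER1 with TARBP2 cuts it to a duplex. An Argonaute protein, AGO1 to AGO4, keeps 1 strand of the duplex as its guide, and TNRC6A (GW182) joins Argonaute to the complexes that shorten and decap the target mRNA. An siRNA is made as a duplex and so needs neither DROSHA nor XPO5. AGO2 is the Argonaute best known for cutting a fully matched target, while bases 2 to 8 of a guide, the seed, can repress mRNAs that match only there.

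The sites that the siRNAs cut in REV1 are shown first, because their last bases carry the 7 letters that pair with each guide seed, and the same letters were then searched in the members. Both sites are in the coding sequence of the transcript REV1-201 (GENCODE release 29, GRCh38, minus strand of chromosome 2). They are written 5′ to 3′ in the sense of the mRNA, with the seed match in capitals. The site of SiREV1#1 is in exon 18 of 23 at chr2:99404474-99404492, and that of SiREV1#2 spans the junction of exons 4 and 5.
SiREV1#1 site, bases 3226 to 3244: gaacagtgacgCAGGAATa
SiREV1#2 site, bases 579 to 597: gcatcaaagctGGACGACt

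REV1 was lower in every library that received an siRNA against it. Its FPKM, a level scaled by transcript length and library size, was 7.23, 7.90 and 8.44 in Scramble, 2.60, 2.92 and 3.36 after SiREV1#1, and 3.62, 3.36 and 3.18 after SiREV1#2, with no overlap between either siRNA and Scramble. Total expected counts, the estimated reads assigned to genes, were between 13059082 and 20166451 in 8 libraries. The count column given for SiREV1#2 replicate 3 equalled that of replicate 2 at 100.0% of genes, so tests on counts hold 8 libraries and FPKM values hold all 9. Replicate 1 stood apart in each group, and between 23.4% and 29.8% of 14203 genes differed more than 2-fold there from the mean of replicates 2 and 3. Of the epithelial markers, KRT8 and KRT18 were at 1372 FPKM or more in all libraries and CDH1 at 6.32 or more, whereas EPCAM did not exceed 2.38 and KRT19 did not exceed 1.34. The 7 markers of blood, endothelial and fibroblast cells that the tables list summed to between 0.50 and 8.10 FPKM per library. CDH5, COL1A2 and DCN did not exceed 0.04, CD14 reached 5.89, and the highest sum in each group was 6.41, 8.10 and 5.68 for Scramble, SiREV1#1 and SiREV1#2. The part of these marker levels in the results was not tested.

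In the scramble libraries the members covered group means from 2.13 to 22.3 FPKM. TARBP2, the RNA-binding partner of DICER1, was the highest, with a mean of 22.3 FPKM and all 3 libraries above those of the next gene. XPO5 (13.7), TNRC6A (13.6) and DROSHA (13.5) followed, and their libraries overlapped, so no order among them was resolved. DICER1 came next at 7.6 FPKM, close to the median of 7.69 over 14203 genes, and did not overlap DROSHA above it or AGO2 below it. AGO2 (5.77) and DGCR8 (4.66) overlapped. AGO4 (2.3), AGO3 (2.28) and AGO1 (2.13) were the lowest, overlapped one another, and lay between the percentiles 27.2 and 28 of all genes, so AGO2 was the most abundant Argonaute transcript. The plot of FPKM by library shows these levels for all 10 genes.

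**Figure D1:**
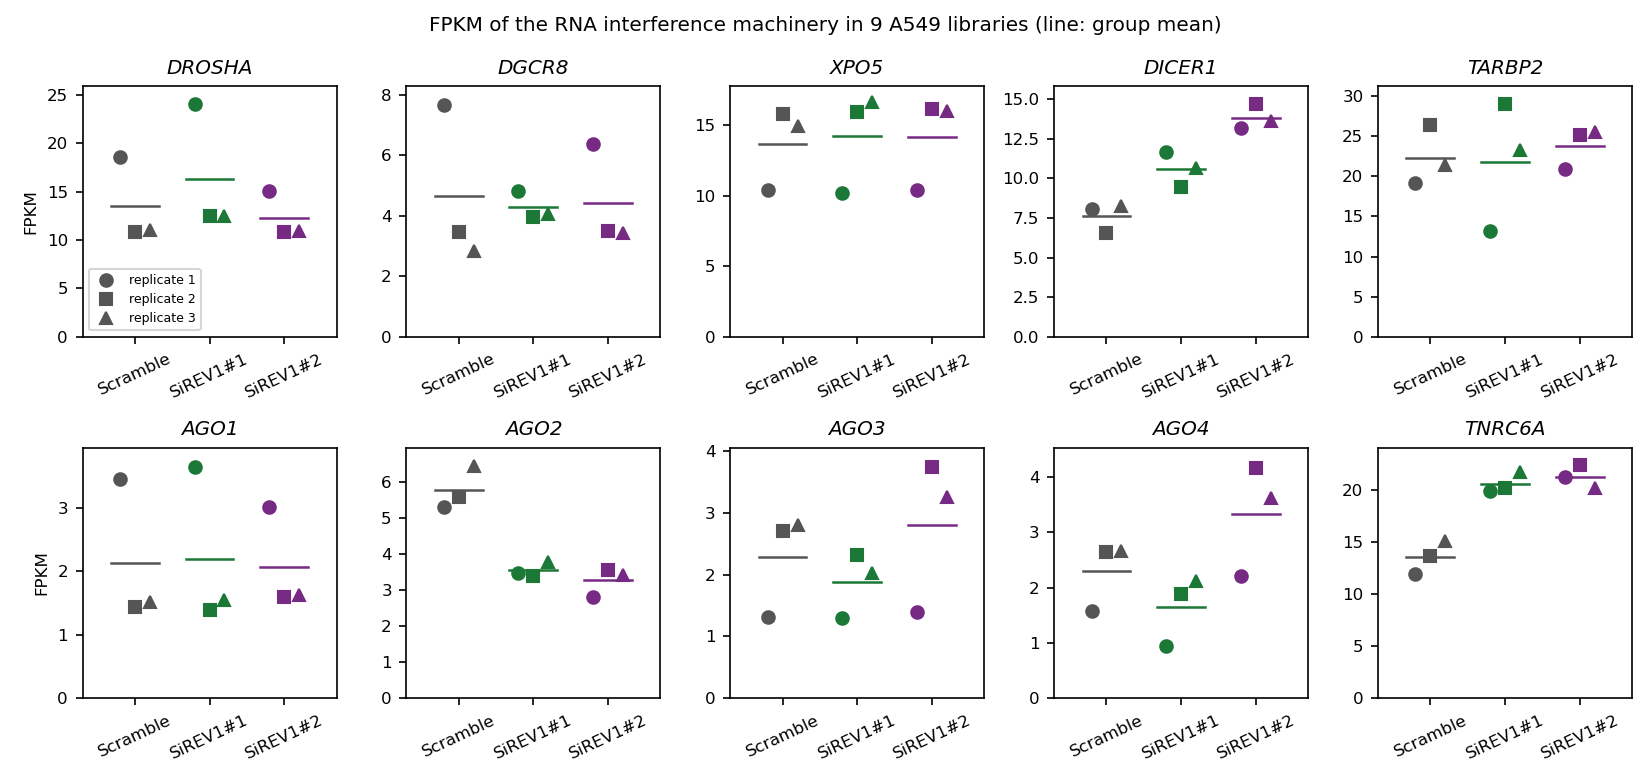
FPKM (y axis, from 0, a separate scale per gene) of the 10 genes in Scramble, SiREV1#1 and SiREV1#2, with circles, squares and triangles for replicates 1, 2 and 3 and a line at the group mean. AGO2 lies at 5.29 or more in Scramble and at 3.79 or less in the 6 other libraries, DICER1 and TNRC6A are higher in those 6, and AGO1, DROSHA and DGCR8 are highest in replicate 1 of every group.

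AGO2 was lower after both siRNAs than after scramble. Its FPKM was 5.29, 5.57 and 6.44 in Scramble replicates 1 to 3, 3.46, 3.40 and 3.79 after SiREV1#1, and 2.82, 3.55 and 3.43 after SiREV1#2. All 6 libraries with an siRNA against REV1 lay below the lowest scramble library, and the 2 siRNA groups overlapped each other. Between libraries of the same number, the log2 ratio of FPKM + 0.1 averaged -0.68 ± 0.08 (SD, n = 3) for SiREV1#1. For SiREV1#2 it averaged -0.80 ± 0.15 (SD, n = 3), which makes AGO2 0.624 and 0.573 times the scramble level. The exact two-sided permutation test on the FPKM of the groups, without pairing, gave p = 0.1 for each siRNA. That is the smallest value that 3 against 3 libraries allow. In bulk RNA, fewer cells of a kind and less RNA per cell cannot be told apart.

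In edgeR's quasi-likelihood test on the counts of 8 libraries, without the replicate number as a block, AGO2 had a log2 fold change of -0.62 (SE 0.17, adjusted p = 0.258) after SiREV1#1 and -0.82 (SE 0.19, adjusted p = 0.438) after SiREV1#2. With the replicate number as a block it was -0.61 (SE 0.14, adjusted p = 0.0275) after SiREV1#1, which passed the threshold of 0.05, and -0.77 (SE 0.16, adjusted p = 0.0609) after SiREV1#2, which did not. In limma-trend on log2(FPKM + 1) of all 9 libraries with the block, the differences in AGO2 were -0.57 (95% interval -0.82 to -0.32, adjusted p = 0.0115) and -0.67 (-0.91 to -0.42, adjusted p = 0.0109). Over 28 alternative settings the adjusted p of AGO2 ran from 1.81e-05 to 0.844 for SiREV1#1 and from 0.000131 to 1 for SiREV1#2, and the sign was negative in all of them. The difference in AGO2 between the siRNAs was 0.10 on the log2(FPKM + 1) scale with a 95% interval of -0.15 to 0.34 (adjusted p = 0.532), so a difference of that size in either direction was not resolved.

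AGO4, AGO1 and AGO3 lie next to each other, in that order, on the plus strand of chromosome 1 (GRCh38, 35808172 to 35857890, 35869808 to 35930528 and 35930718 to 36072500). AGO2 lies apart from them on chromosome 8. AGO4, an Argonaute that binds small RNAs without cutting targets, read lower after SiREV1#1 and higher after SiREV1#2 in each replicate number. Its FPKM was 1.58, 2.65 and 2.66 in Scramble, 0.94, 1.89 and 2.13 after SiREV1#1, and 2.21, 4.16 and 3.63 after SiREV1#2. Replicate 1 was the lowest of its group each time, and the siRNA groups overlapped Scramble but not each other.

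The log2 ratio of AGO4 to its same-numbered scramble library averaged -0.49 ± 0.19 (SD, n = 3) after SiREV1#1, lower in 3 of 3, and 0.51 ± 0.11 (SD, n = 3) after SiREV1#2, higher in 3 of 3. The ratio of SiREV1#1 to SiREV1#2 was -1.0 ± 0.22 (SD, n = 3), or 0.501-fold. In edgeR without a block the AGO4 difference between the siRNAs was -1.0 (SE 0.38, adjusted p = 0.328). With the replicate block it was -1.14 (SE 0.16, adjusted p = 0.00454), and in limma-trend with the block -0.71 (95% interval -0.94 to -0.48, adjusted p = 0.00188). AGO4 against Scramble did not pass with the block in edgeR, with -0.41 (adjusted p = 0.0983) after SiREV1#1 and 0.73 (adjusted p = 0.0663) after SiREV1#2. Over 28 alternatives the difference in AGO4 between the siRNAs was negative in every one, with an adjusted p from 3.59e-06 to 0.655. In edgeR without a block that difference was -0.49 without SiREV1#2 replicate 2, and AGO4 after SiREV1#2 then went from 0.60 to 0.10. That leaves the group replicate 1 as its 1 counted library. AGO4 in replicate 1 was below the mean of replicates 2 and 3 in every group (log2 -0.71 in Scramble, -1.02 and -0.79 after the siRNAs). This fit therefore cannot tell the part of the library left out from that of the replicate number.

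AGO3, which neighbours AGO1 and is the longest transcript of the family, showed a like direction in smaller steps. Its FPKM was 1.32, 2.71 and 2.80 in Scramble, 1.30, 2.31 and 2.02 after SiREV1#1, and 1.40, 3.74 and 3.25 after SiREV1#2. The 3 groups overlapped, and replicate 1 was the lowest library of each. The log2 ratio averaged -0.23 ± 0.22 (SD, n = 3) and 0.25 ± 0.19 (SD, n = 3), with 3 of 3 pairs lower after SiREV1#1 and 3 of 3 higher after SiREV1#2. In limma-trend with the block the AGO3 difference between the siRNAs was -0.36 (95% interval -0.63 to -0.09, adjusted p = 0.0515) and did not pass. AGO1, an Argonaute that works mainly in repression without cutting, read 3.46, 1.43 and 1.51 FPKM in Scramble, 3.65, 1.39 and 1.55 after SiREV1#1, and 3.01, 1.59 and 1.62 after SiREV1#2. Its difference from Scramble was 0.02 (95% interval -0.21 to 0.25) after SiREV1#1 and 0.00 (-0.23 to 0.23) after SiREV1#2 on the log2(FPKM + 1) scale, and its replicate 1 was the highest library of every group.

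The make-up of the Argonaute transcripts differed by siRNA and by replicate number. AGO2 made up 45.4%, 45.1% and 48.0% of the summed FPKM of AGO1 to AGO4 in Scramble. The share was 37.0%, 37.8% and 39.9% with SiREV1#1. With SiREV1#2 it was 29.9%, 27.2% and 28.8%, and the 3 groups did not overlap. The FPKM of AGO2 itself did overlap between the siRNAs, and its share also depends on AGO1, AGO3 and AGO4. AGO4 made up 23.4%, 31.9% and 30.4% after SiREV1#2, against 13.6%, 21.4% and 19.8% in Scramble and 10.1%, 21.0% and 22.4% after SiREV1#1. AGO1 held between 29.7% and 39.0% in replicate 1 and between 11.3% and 16.3% in replicates 2 and 3. The summed FPKM of the family ran from 11.65 to 13.41 in Scramble, from 8.99 to 9.49 with SiREV1#1, and from 9.44 to 13.04 with SiREV1#2. After SiREV1#1 the sum over the family was therefore lower than in any scramble library, while after SiREV1#2 the sum overlapped Scramble. Of the single genes only AGO2 lay below Scramble without overlap after SiREV1#1, and AGO1, AGO3 and AGO4 each overlapped it. The exact two-sided permutation test of shares that do not overlap between 2 groups of 3 cannot go below 0.1.

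**Figure D2:**
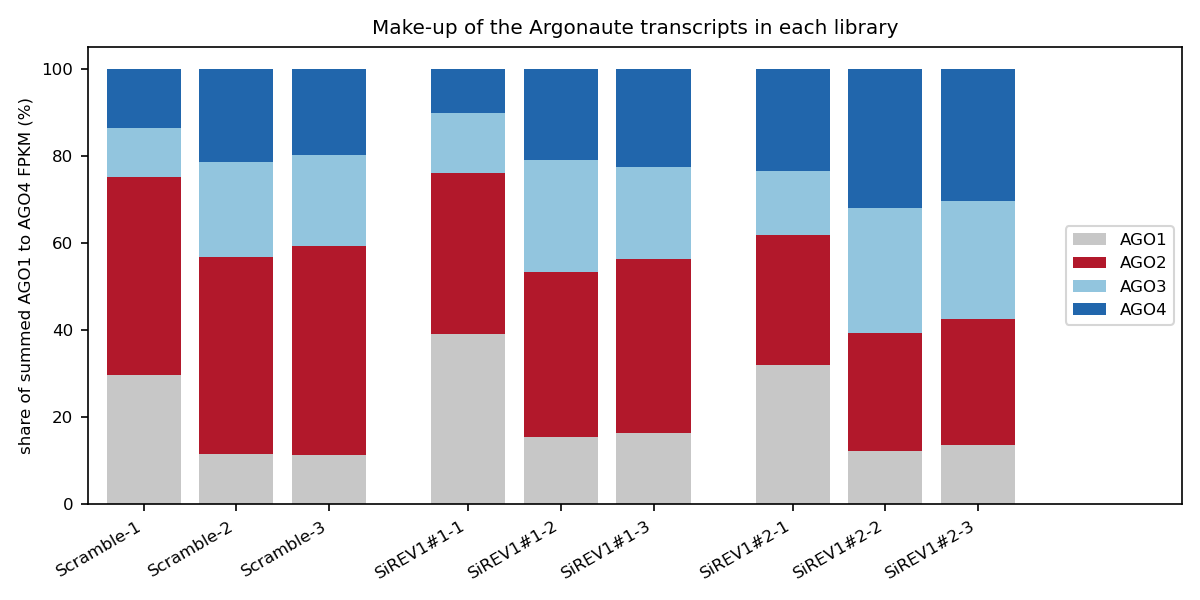
Share of the summed AGO1 to AGO4 FPKM (y axis, percent) held by each Argonaute gene in each of the 9 libraries (x axis). The AGO2 share is between 45.1% and 48.0% in Scramble, 37.0% to 39.9% with SiREV1#1 and 27.2% to 29.9% with SiREV1#2, and AGO1 is largest in replicate 1 of each group.

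DICER1, the ribonuclease that cuts hairpins and long double strands to guide length, was higher after both siRNAs. It read 8.04, 6.52 and 8.23 FPKM in Scramble, 11.65, 9.47 and 10.65 after SiREV1#1, and 13.21, 14.67 and 13.64 after SiREV1#2. The 3 groups did not overlap, and SiREV1#2 was the highest in each replicate number. The log2 ratio averaged 0.48 ± 0.09 (SD, n = 3) for SiREV1#1. For SiREV1#2 it averaged 0.86 ± 0.26 (SD, n = 3), which makes the levels 1.39- and 1.82-fold. The exact permutation test on unpaired FPKM gave p = 0.1 for each siRNA.

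In edgeR without a block DICER1 did not pass, with 0.55 (SE 0.19, adjusted p = 0.362) after SiREV1#1 and 0.90 (SE 0.21, adjusted p = 0.413) after SiREV1#2. With the replicate block the DICER1 fold change was 0.55 (SE 0.15, adjusted p = 0.0513) for SiREV1#1 and 0.93 (SE 0.17, adjusted p = 0.0432) for SiREV1#2, and the latter passed. In limma-trend with the block the differences in DICER1 were 0.43 (95% interval 0.15 to 0.71, adjusted p = 0.0475) and 0.79 (0.51 to 1.07, adjusted p = 0.00957). The difference between the siRNAs was -0.36 (-0.64 to -0.08, adjusted p = 0.0552) and did not pass. Over 28 alternatives DICER1 was higher in all, with an adjusted p from 0.00188 to 0.922 for SiREV1#1 and from 2.5e-05 to 1 for SiREV1#2.

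TARBP2, which holds the RNA beside DICER1, did not follow it. Its FPKM was 19.19, 26.39 and 21.45 in Scramble, 13.15, 28.98 and 23.32 after SiREV1#1, and 20.87, 25.10 and 25.47 after SiREV1#2. The groups overlapped, and after SiREV1#1 replicate 1 was lower than its scramble partner while replicates 2 and 3 were higher. The difference in TARBP2 from Scramble was -0.09 (95% interval -0.46 to 0.28) after SiREV1#1 and 0.09 (-0.28 to 0.47) after SiREV1#2, and both intervals include 0 on the log2(FPKM + 1) scale.

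TNRC6A, the scaffold that ties Argonaute to deadenylation, was higher after both siRNAs. Its FPKM was 11.92, 13.69 and 15.08 in Scramble, 19.88, 20.18 and 21.70 after SiREV1#1, and 21.22, 22.42 and 20.21 after SiREV1#2. The lowest library with an siRNA against REV1 lay above the highest scramble library. The log2 ratio averaged 0.60 ± 0.11 (SD, n = 3) and 0.65 ± 0.21 (SD, n = 3), or 1.52- and 1.57-fold. The exact permutation test on unpaired FPKM gave p = 0.1 for each siRNA. The plot of log2 ratios shows TNRC6A and DICER1 to the right and AGO2 to the left of 0 in all 3 pairs of both comparisons.

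In edgeR without a block TNRC6A had 0.68 (SE 0.16, adjusted p = 0.185) after SiREV1#1 and 0.71 (SE 0.18, adjusted p = 0.482) after SiREV1#2. With the replicate block it passed after SiREV1#1 (0.69, SE 0.13, adjusted p = 0.0159) and missed after SiREV1#2 (0.75, SE 0.15, adjusted p = 0.0553). In limma-trend with the block the TNRC6A differences were 0.57 (95% interval 0.33 to 0.82, adjusted p = 0.0116) and 0.62 (0.37 to 0.87, adjusted p = 0.0152), and the difference between siRNAs was -0.05 (-0.29 to 0.20). Over 28 alternatives TNRC6A was higher in all, with an adjusted p from 2.43e-05 to 0.661 and from 8.38e-05 to 1. Its paralogues TNRC6B and TNRC6C, named after their values were seen, were lower in FPKM than TNRC6A. With the block, edgeR and limma-trend called TNRC6C between the siRNAs (17.6% and 30.8% of all genes) but not against Scramble. They did not call TNRC6B in any comparison. TNRC6B was between 1.75 and 2.40 in Scramble, 1.29 to 2.51 with SiREV1#1 and 1.98 to 2.25 with SiREV1#2, and TNRC6C was 0.64, 2.08 and 2.09 in Scramble, 0.52, 0.94 and 1.04 after SiREV1#1, and 0.64, 2.51 and 2.48 after SiREV1#2.

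**Figure D3:**
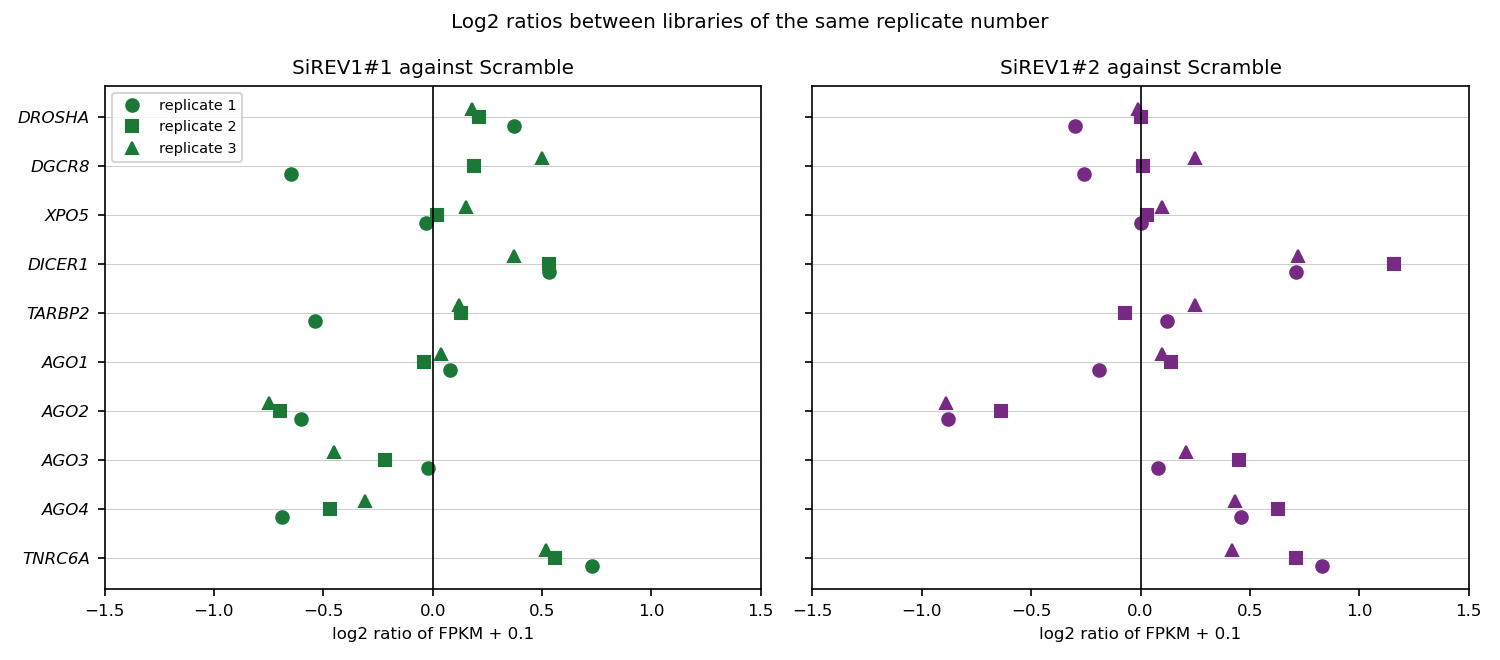
Log2 ratio of FPKM + 0.1 (x axis) between each siRNA and the scramble library of the same replicate number, for the 10 genes, with circles, squares and triangles for replicates 1, 2 and 3. AGO2 averages -0.68 and -0.80, TNRC6A 0.60 and 0.65 and DICER1 0.48 and 0.86, with all 3 pairs on 1 side, while AGO4 lies left of 0 after SiREV1#1 and right of 0 after SiREV1#2.

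Since DICER1 and TNRC6A were higher where AGO2 was lower, their FPKM ratios to AGO2 differed more than any of the 3 genes alone. The DICER1 to AGO2 ratio ran from 1.17 to 1.52 in Scramble, from 2.79 to 3.37 with SiREV1#1, and from 3.98 to 4.68 with SiREV1#2. The TNRC6A to AGO2 ratio was between 2.25 and 2.46, between 5.73 and 5.94, and between 5.89 and 7.52. Both ratios separated every library with an siRNA against REV1 from every scramble library. That follows from the 3 genes, none of which overlapped Scramble, and adds nothing to them. The DICER1 to AGO2 ratio also separated the siRNAs.

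The nuclear members and the exporter were not called in edgeR on 8 libraries or in limma-trend on 9 libraries, with or without the block. In replicates 2 and 3 alone, both fits called DGCR8 after SiREV1#1. Limma-trend there also called DROSHA after SiREV1#1 and between the siRNAs. EdgeR there had 1 counted library of SiREV1#2, so its calls for that siRNA are not given. After SiREV1#1 edgeR called 46.5% of all genes and limma-trend 46.7%, and between the siRNAs limma-trend called 60.7%. DROSHA, the nuclear ribonuclease, read 18.62, 10.81 and 11.05 FPKM in Scramble, 24.03, 12.53 and 12.49 after SiREV1#1, and 15.10, 10.83 and 10.97 after SiREV1#2. It was higher in 3 of 3 pairs after SiREV1#1, by 0.25 ± 0.10 (SD, n = 3) on the log2 scale. With the block its limma-trend difference was 0.24 (95% interval -0.04 to 0.51, adjusted p = 0.216) for SiREV1#1, -0.10 (-0.37 to 0.18, adjusted p = 0.673) for SiREV1#2, and 0.33 (0.06 to 0.61, adjusted p = 0.0666) between the siRNAs.

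DGCR8, the RNA-binding partner of DROSHA, was highest in replicate 1 of each group, with 7.66, 3.48 and 2.85 FPKM in Scramble, 4.83, 3.97 and 4.06 after SiREV1#1, and 6.37, 3.50 and 3.42 after SiREV1#2. After SiREV1#1 it was lower in replicate 1 and higher in replicates 2 and 3, and its mean log2 ratio of 0.01 ± 0.60 (SD, n = 3) left a 95% interval of -0.41 to 0.40 in limma-trend. Exons of other genes on the opposite strand cover 7.22% of the DGCR8 exon bases, 4.08% of those of XPO5 and 11% of those of REV1. The library protocol in the labels names no strand marking, so reads of these genes cannot be told apart there. XPO5, the export receptor, had paired log2 ratios to Scramble between -0.03 and 0.15. It read 10.40, 15.77 and 14.91 FPKM in Scramble, 10.21, 15.96 and 16.61 after SiREV1#1, and 10.41, 16.13 and 15.97 after SiREV1#2. Its difference from Scramble was 0.05 (95% interval -0.17 to 0.26) and 0.04 (-0.18 to 0.26), so any shift in XPO5 beyond -0.18 or 0.26 on the log2(FPKM + 1) scale lay outside both intervals.

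**Figure D4:**
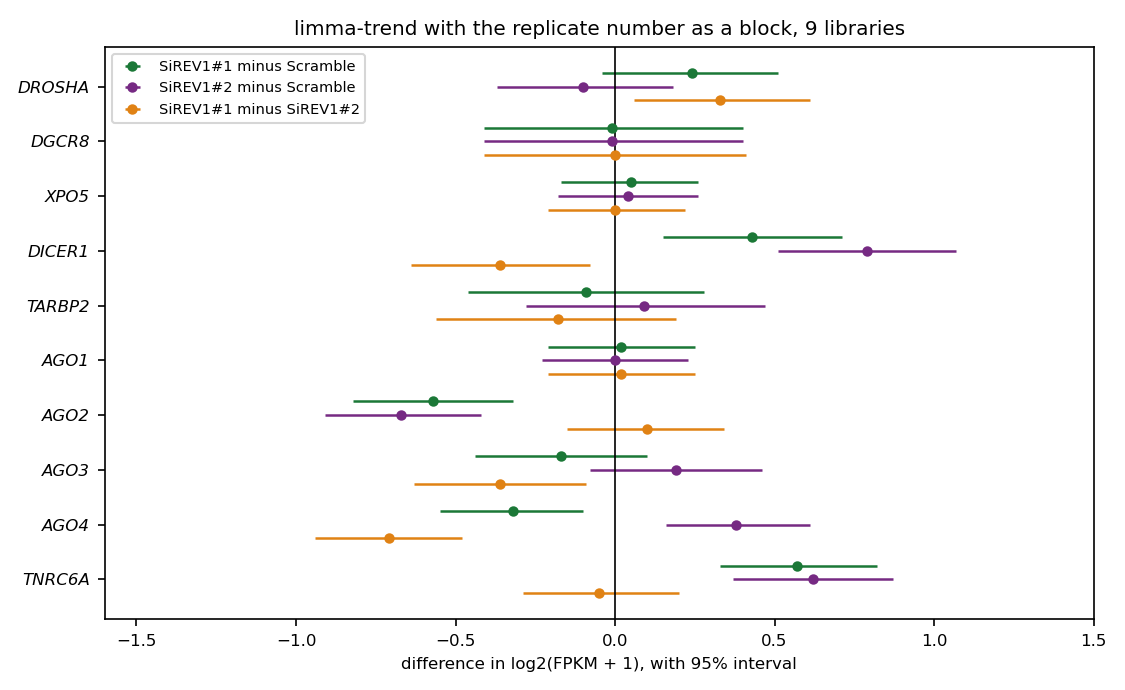
Difference in log2(FPKM + 1) (x axis) for the 10 genes, from limma-trend on 9 libraries with the replicate number as a block, as points with 95% intervals for each siRNA against Scramble and for SiREV1#1 against SiREV1#2. For AGO2, DICER1 and TNRC6A both siRNA intervals lie on 1 side of 0, and the AGO4 difference between the siRNAs is -0.71 with an interval from -0.94 to -0.48.

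Counted over the members, edgeR without a block called 0 of 10 in each comparison, where it called 0.296% of 14205 genes after SiREV1#1, 0% after SiREV1#2 and 0.676% between the siRNAs. After SiREV1#2 this fit thus did not call REV1 either, although REV1 was at 0.438 times the scramble level without overlap. The 0 called there therefore says little about the members. At an unadjusted p under 0.05 it gave 3, 3 and 1 members, against 9.75%, 5.48% and 12.4% of all genes. With the replicate block edgeR called 2 members after SiREV1#1 (AGO2 and TNRC6A, background 12.3%), 1 after SiREV1#2 (DICER1, 1.91%) and 1 between the siRNAs (AGO4, 17.6%). Limma-trend on FPKM with the block called AGO2, DICER1 and TNRC6A after each siRNA, where it called 15.5% and 8.61% of genes, and AGO4 between the siRNAs, where it called 30.8%. DESeq2 called 2, 3 and 0 members, against 4.01%, 1.38% and 6.06% of the genes it tested.

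Groups of FPKM values did not overlap for 3 members after SiREV1#1, for 3 after SiREV1#2 and for 2 between the siRNAs, against 18.5%, 15.1% and 22.4% of all genes. All 3 pairs had 1 sign for 6 members after SiREV1#1, for 6 after SiREV1#2 and for 4 between the siRNAs, against 51.6%, 52% and 56% of all genes, which is near the background. DICER1 and TNRC6A were higher in all 3 pairs after both siRNAs (5.73% of all genes) and AGO2 was lower in all (10.7%). The 2 comparisons share their scramble libraries. AGO3 and AGO4 had opposite signs after the siRNAs in all pairs, as did 11.6% of all genes. The median log2 fold change with the block was 0.125 over the members and 0.0042 over all genes after SiREV1#1, and 0.0734 against 0.00727 after SiREV1#2.

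The blocked calls depended on single libraries. In limma-trend with the block, no member was called after SiREV1#1 without Scramble replicate 2 or without SiREV1#1 replicate 3. TNRC6A was the only call without Scramble replicate 3 or SiREV1#1 replicate 2, and AGO2 and TNRC6A were called without Scramble replicate 1 or SiREV1#2 replicate 3. After SiREV1#2, 0 members were called without Scramble replicate 2, Scramble replicate 3, SiREV1#2 replicate 2 or SiREV1#2 replicate 3, and 4 were called without SiREV1#1 replicate 1. AGO4 was called between the siRNAs without any 1 of the 9 libraries, joined by AGO3 and DICER1 without SiREV1#1 replicate 1 or SiREV1#2 replicate 1. In replicates 2 and 3 alone, edgeR called 6 members after SiREV1#1, 4 after SiREV1#2 and 4 between the siRNAs (46.5%, 38.4% and 54.4% of all genes), and limma-trend on FPKM called 6, 5 and 4 in a setting where it called 46.7%, 45.4% and 60.7% of all genes.

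The genes nearest in pattern were ranked for AGO2 and DICER1 by Pearson correlation over 9 libraries, after the mean of each replicate number had been taken from log2(FPKM + 1), among 11428 genes. These points share libraries and controls, so the values are descriptions. The 5 genes nearest to AGO2 were SERTAD2 (r = 0.994), GPBP1 (0.986), MYO9B (0.986), GOSR2 (0.983) and NRGN (0.983). SERTAD2, a transcriptional coregulator, read 8.90, 25.44 and 29.20 FPKM in Scramble, 4.18, 10.90 and 10.79 after SiREV1#1, and 2.99, 10.80 and 10.61 after SiREV1#2. Among the members, TNRC6A (r = -0.935) and DICER1 (-0.852) ran most opposite to AGO2, while AGO1 (0.068), AGO3 (-0.054) and AGO4 (-0.164) showed little relation to it. The 5 nearest to DICER1 were BTRC (0.981), EIF1B (0.980), NRAS (0.980), DENND6A (0.979) and IL6R (0.977), and TNRC6A (0.880) ranked 161.

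The letters that pair with the guide seeds were searched in the sense strand of the member transcripts with the longest annotated 3′ UTR. The 7 letters CAGGAAT, for SiREV1#1, occur in the 3′ UTR of 15.7% and in the coding sequence of 15% of 13788 genes. The letters GGACGAC, for SiREV1#2, occur in 1.31% and 9.22%. The SiREV1#1 letters occur in the 3′ UTRs of AGO1 (1 place), AGO2 (1), AGO3 (4) and DICER1 (1), and in the coding sequences of AGO1 (1), AGO2 (1), AGO4 (3), DROSHA (2) and TNRC6A (1). The AGO3 3′ UTR is 16755 bases long, that of AGO2 11888 and that of AGO1 10921, so they offer more places than most. The SiREV1#2 letters occur in the 3′ UTR of none of the 10 genes. TARBP2, DGCR8 and XPO5 do not hold the SiREV1#1 letters in either region of the transcripts searched. The annotated coding sequence of that TARBP2 transcript has 682 bases, which is not a whole number of codons. Part of it may be missing, so absence from the full TARBP2 coding sequence was not established.

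The matches to SiREV1#1 in AGO4 and AGO3, whose paired ratios had opposite signs after the siRNAs, and in DICER1 and TNRC6A, which were higher after both, are given here in 25 bases, with the matching letters in capitals and positions counted from the start of the region. Of the genes not shown, AGO2 (lower after both siRNAs), AGO1 (near 0) and DROSHA (higher in 3 of 3 pairs after SiREV1#1) hold 2 each over both regions. A match describes the letters only, and its part in these levels was not tested.
AGO4 coding sequence, 1418: ctaaggatgCAGGAATgcccatcca
AGO4 coding sequence, 2105: attaccggcCAGGAATaacttatat
AGO4 coding sequence, 2267: gtagtcatgCAGGAATtcagggaac
AGO3 3′ UTR, 4592: gcccttcagCAGGAATgactggcag
AGO3 3′ UTR, 4686: attgcagacCAGGAATtagagaccg
AGO3 3′ UTR, 12590: agtatatatCAGGAATatgatgtat
AGO3 3′ UTR, 15065: ctgatatatCAGGAATaattttaaa
DICER1 3′ UTR, 3670: attacttttCAGGAATttaattatt
TNRC6A coding sequence, 2432: ctgctgctaCAGGAATggtcaagag

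Beyond the members, 72 listed genes work with them, among them the CCR4-NOT and PAN2-PAN3 deadenylases, decapping factors, chaperones that load Argonaute, and nucleases and uridylyl transferases that act on small RNAs, of which 71 were tested. Without a block edgeR called 0 of 71 in each comparison, with 12, 6 and 14 at an unadjusted p under 0.05 after SiREV1#1, after SiREV1#2 and between the siRNAs, against 9.75%, 5.48% and 12.4% of all genes. DESeq2 called 4, 3 and 9, against 4.01%, 1.38% and 6.06%. With the replicate block, 2 were higher and 12 lower after SiREV1#1, 2 were higher and 1 lower after SiREV1#2, and 5 were higher and 11 lower after SiREV1#1 than after SiREV1#2. Of all genes, the same fits called 5.32% higher and 6.96% lower, 0.493% and 1.41%, and 8.75% and 8.87%. The median log2 fold change of the 71 genes with the block was -0.147 after SiREV1#1 and 0.02 after SiREV1#2.

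The values of the genes named from this list come from edgeR with the replicate block. DDX6, the helicase that joins CCR4-NOT to decapping, had 15.73, 18.49 and 18.41 FPKM in Scramble, 6.68, 6.83 and 7.30 after SiREV1#1, and 14.66, 25.95 and 26.29 after SiREV1#2. Its log2 fold change was -1.28 (SE 0.17, adjusted p = 0.0045) after SiREV1#1 and -1.51 (SE 0.20, adjusted p = 0.0032) between the siRNAs. CNOT8, a catalytic deadenylase subunit, fell by 0.79 (adjusted p = 0.0065) on the log2 scale after SiREV1#1, where its 3 libraries were between 9.36 and 10.24 FPKM against 16.47 or more in the 6 other libraries. ERI1, a nuclease that trims small RNAs, fell by 0.96 (adjusted p = 0.006) and EIF4A2, a helicase of translation initiation, fell by 0.70 (adjusted p = 0.0097) after SiREV1#1. MOV10, a helicase that binds Argonaute, rose by 0.74 (adjusted p = 0.01) and PAN2, a deadenylase, rose by 0.68 (adjusted p = 0.013).

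After SiREV1#2, DCP2, the decapping enzyme, rose by 1.43 (SE 0.22, adjusted p = 0.023), with 4.58, 8.02 and 7.68 FPKM against 2.18, 2.43 and 3.15 in Scramble and 0.60, 1.60 and 1.68 after SiREV1#1. LIN28B, which blocks the maturation of let-7 microRNAs, rose by 1.63 (SE 0.19, adjusted p = 0.011), and NCBP1, a cap-binding protein, fell by 0.88 (adjusted p = 0.04). Between the siRNAs, DCP2 differed by -2.43 (SE 0.23, adjusted p = 0.0012). CNOT6L, another deadenylase subunit, differed by -1.05 (adjusted p = 0.0053) and ERI1 by -1.02 (adjusted p = 0.0065), while MOV10 (0.64, adjusted p = 0.025), CNOT11 (0.60, adjusted p = 0.025), DCP1B (1.02, adjusted p = 0.028) and CNOT3 (1.10, adjusted p = 0.034) were higher after SiREV1#1. In edgeR without the block on all 8 libraries none of these calls was made, though DDX6 was called after SiREV1#1 with only the 2 groups compared or without SiREV1#2 replicate 1. Between the siRNAs DDX6 was also called in edgeR without the block under upper-quartile scaling or with at least 10 counts in every library. DESeq2, which had no block, called DDX6 and CNOT8 after SiREV1#1 and LIN28B and NCBP1 after SiREV1#2. Between the siRNAs it called DCP2, DDX6, DCP1B, CNOT3 and CNOT11. Limma-trend without a block called CNOT8 after SiREV1#1, and DCP2, DDX6 and CNOT3 between the siRNAs. The other calls named here were made by neither. Without SiREV1#2 replicate 2, that group keeps replicate 1 as its 1 counted library. EdgeR without the block then gave 0.85 for LIN28B and 0.86 for DCP2 after SiREV1#2. Between the siRNAs it gave -0.43 for CNOT6L and -0.41 for ERI1. Without SiREV1#1 replicate 1 it gave -0.43 for EIF4A2 after SiREV1#1. These fits do not balance replicate 1 between the groups.

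**Figure D5:**
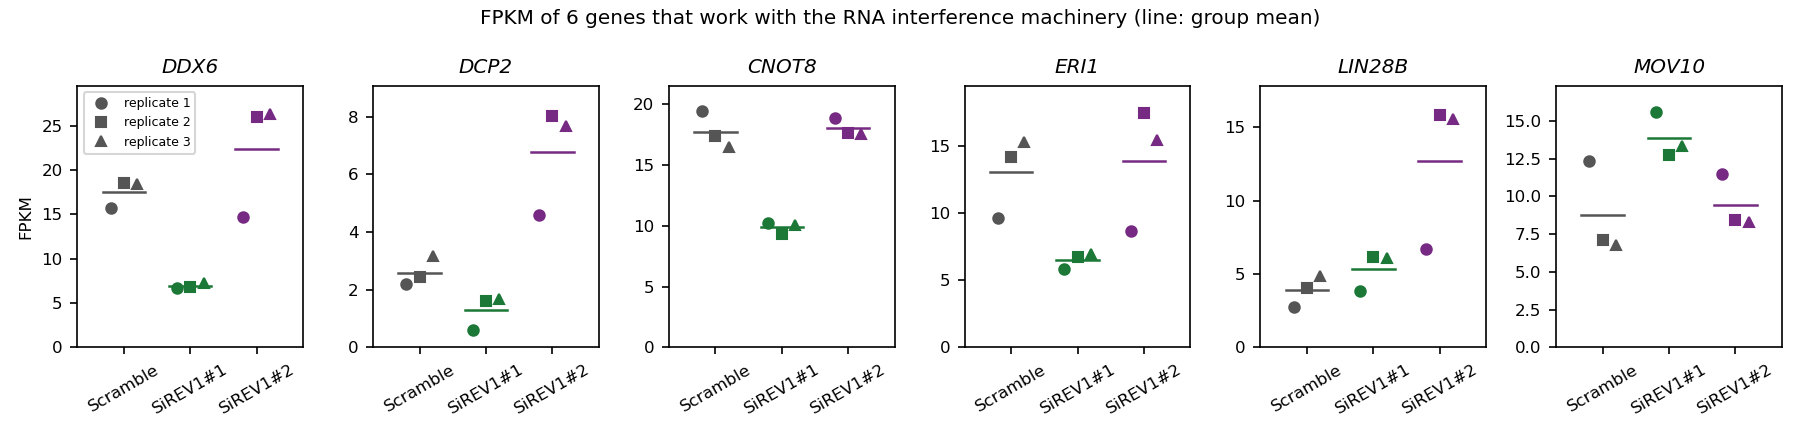
FPKM (y axis, from 0, a separate scale per gene) of DDX6, DCP2, CNOT8, ERI1, LIN28B and MOV10 in Scramble, SiREV1#1 and SiREV1#2, with circles, squares and triangles for replicates 1, 2 and 3 and a line at the group mean. DDX6 lies at 7.30 or less after SiREV1#1 and at 14.66 or more elsewhere, and DCP2 lies at 4.58 or more after SiREV1#2 and at 3.15 or less elsewhere.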

How the data were processed

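Oligo(dT)-selected RNA of 9 A549 libraries had been sequenced on BGISEQ-500, and per the labels StringTie 1.3.3b and the build hg38 were used; the aligner is not given in the sources used here. The authors deposited FPKM values (per transcript length and library size) and expected counts (not normalized, 42.6% of them not whole) for 18143 genes. The members and gene lists were chosen with earlier results of these data known.

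Expected counts were rounded and tested with edgeR 4.0.16 in R 4.3.3 (filterByExpr, TMM, quasi-likelihood F test, 3 groups in 1 fit, Benjamini-Hochberg over 14205 genes, threshold 0.05). The count column given for SiREV1#2 replicate 3 was left out. EdgeR fits without replicate 1, or without 1 counted SiREV1#2 library, therefore hold 1 library of SiREV1#2. The spread for that group then comes from the other groups, and the ranges of adjusted p over alternatives include these fits. The design had assumed 9 count libraries. Each SE is the size of the log2 fold change over the square root of F. Replicate numbers come from the sample titles, and same-numbered libraries deviated together in all 9 pairs (r from 0.724 to 0.924). Libraries with different numbers were not compared. Replicate 1 stood apart in each group, so these r values cannot show that replicates 2 and 3 pair by number. The replicate number was also fitted as a block, and the biological coefficient of variation was then 0.161 in place of 0.412. FPKM were tested with limma 3.58.1 (limma-trend, pseudocount 1) and exact permutation tests, and paired ratios used a pseudocount of 0.1, so fold changes of low genes are understated. DESeq2 1.42.0 was an alternative. Models were tested on simulated data. Genes named were the members, REV1, the 5 nearest in pattern to AGO2 and to DICER1 (mean FPKM over 1), and up to 4 of the pathway list per direction by p among those passing. Sequences come from GENCODE release 29 on GRCh38. Matches to SiREV1#2 in the members' coding sequences are not reported here. Member counts were between 69 (AGO3) and 3696 (TNRC6A) per library.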

Additional observations from a re-analysis of the deposited data

Results flagged for a closer look

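AGO4 and AGO3 were singled out because each moved one way in all 3 replicate pairs after SiREV1#1 and the other way in all 3 pairs after SiREV1#2. The mean log2 ratio of FPKM + 0.1 to Scramble was -0.49 for AGO4 after SiREV1#1 and 0.51 after SiREV1#2. For AGO3 it was -0.23 and 0.25, but in replicate 1 only -0.02 and 0.08. The difference between the siRNAs passed for AGO4 with the replicate block (edgeR adjusted p = 0.00454, with 3.59e-06 to 0.655 over its alternatives) and not without it (adjusted p = 0.328). For AGO3 it did not pass with the block in edgeR (adjusted p = 0.287, with 0.000868 to 0.941 over its alternatives). Both comparisons use the same scramble libraries, and 11.6% of all genes had such opposite signs.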

How the results depend on the processing

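On all 8 libraries without a block, edgeR called 0 members in each comparison. With the replicate block, from the pairing by number, edgeR called 2 after SiREV1#1, 1 after SiREV1#2 and 1 between the siRNAs, and limma-trend on log2(FPKM + 1) called 3, 3 and 1. DESeq2 called 2 and 3 after the siRNAs. Replicates 2 and 3 alone gave 6 after SiREV1#1 in edgeR. With 1 counted library of SiREV1#2 in that fit, its other calls are not given. Limma-trend on replicates 2 and 3, chosen after seeing the data, gave 6, 5 and 4. Leaving out 1 library gave 0 in edgeR without a block, and in limma-trend with the block (also chosen after seeing the data) 0 to 3, 0 to 4 and 1 to 3. Upper-quartile scaling, both filters, 2 groups only and limma-trend without a block called 0 members.

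Of the pathway list, where the same fit called 0, the replicate block gave 14, 3 and 16 of 71 in edgeR (12.3%, 1.91% and 17.6% of all genes) and 18, 7 and 31 in limma-trend (15.5%, 8.61% and 30.8%). DESeq2 gave 4, 3 and 9. Limma-trend without a block gave 2 after SiREV1#1 and 7 between the siRNAs with either pseudocount. Using 2 groups only gave 1 after SiREV1#1, and upper-quartile scaling or at least 10 counts in every library gave 1 between the siRNAs. Replicates 2 and 3 alone gave 46, 41 and 45 in edgeR (46.5%, 38.4% and 54.4% of all genes) and 47, 45 and 55 in limma-trend (46.7%, 45.4% and 60.7%). Leaving out 1 library gave 0 to 28 after SiREV1#1, 0 to 24 after SiREV1#2 and 0 to 38 between the siRNAs over both fits.

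AGO2, AGO4 and DICER1 kept their sign in every alternative for every comparison, and TNRC6A did against Scramble. Signs turned for other members, of which AGO3, DROSHA and DGCR8 were called in at least 1 comparison in replicates 2 and 3 alone. After SiREV1#1, AGO1 was -0.00057 in limma-trend on replicates 2 and 3. TARBP2 was -0.018 with the block in edgeR, -0.089 in limma-trend with and without the block and -0.096 with a pseudocount of 0.1. DGCR8 was -0.0089 in limma-trend with and without the block, -0.0091 under upper-quartile scaling and -0.00014 without a filter. After SiREV1#2, DGCR8 was -0.051 with the block in edgeR and -0.0090 in limma-trend with and without the block. XPO5 was 0.061 with the block in edgeR, 0.042 in limma-trend with and without the block, 0.044 with a pseudocount of 0.1, 0.0074 in DESeq2, and 0.077 (edgeR) and 0.062 (limma-trend) on replicates 2 and 3. Between the siRNAs, AGO1 was 0.11 with the block in edgeR, 0.020 in limma-trend with and without the block and 0.0094 with a pseudocount of 0.1. TARBP2 was 0.11 (edgeR) and 0.039 (limma-trend) on replicates 2 and 3. DGCR8 was 0.17 with the block in edgeR, 8.1e-05 in limma-trend with and without the block, 0.0086 with a pseudocount of 0.1, and 0.31 (edgeR) and 0.17 (limma-trend) on replicates 2 and 3. The cause was not tested.

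Leaving out 1 library turned further signs. The ranges here pool edgeR without a block and limma-trend with the block. Without a block, leaving out 1 library unbalances the replicate numbers, and replicate 1 stood apart. For AGO1 after SiREV1#1, edgeR gave 0.84 without Scramble replicate 1 and -0.48 without SiREV1#1 replicate 1. Limma-trend with the block ran from -0.039 to 0.064 there. After SiREV1#1 the log2 fold change then ran from -0.48 to 0.84 for AGO1, -0.24 to 0.26 for TARBP2, -0.14 to 0.65 for DROSHA, -0.24 to 0.59 for DGCR8 and -0.044 to 0.26 for XPO5. After SiREV1#2 it ran from -0.47 to 0.86 for AGO1, -0.69 to 0.59 for AGO3, -0.046 to 0.23 for TARBP2, -0.35 to 0.25 for DROSHA, -0.50 to 0.64 for DGCR8 and -0.34 to 0.25 for XPO5. Between the siRNAs it ran from -0.75 to 0.71 for AGO1, -0.91 to 0.38 for AGO3, -0.33 to 0.20 for TARBP2, -0.085 to 0.69 for DROSHA, -0.44 to 0.50 for DGCR8, -0.13 to 0.47 for XPO5 and -0.14 to 0.0064 for TNRC6A.

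The fit on the 9 count columns as deposited was not run, since 1 column repeats another library. Low counts limit AGO3 and AGO4, with as few as 69 and 80 in a library, and 3 libraries per group cannot give an exact permutation p below 0.1.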
